A study of Mus musculus with 41 samples.

Results

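Interleukin-2 (IL-2), interleukin-7 (IL-7) and their receptors were followed through 5 genes, Il2, Il2ra, Il2rb, Il2rg and Il7r. They were taken by symbol from the 23420 genes of a count table of cultured cells and from the 19221 genes of a single-cell table, and all 5 were present in both. The cultured cells were group 2 innate lymphoid cells (ILC2s), a tissue lymphocyte without antigen receptor, sorted as KLRG1+ cells from the small intestine of wild-type female BALB/cJ mice aged 8 weeks. Each culture held 250 cells for 3 h, and IL-2 and IL-7 were present in every culture, each at 100 ng/ml, so that no group shows these cells without both cytokines. Base medium (3 cultures) added nothing more, a group of 3 cultures added IL-25 at 100 ng/ml, a group of 4 added the neuropeptide α-CGRP at 0.4 μg/ml (CGRP from here on), and a group of 3 added both. The single cells came from female BALB/cJ mice aged 10 weeks, either wild-type controls or mice with an inflammation provoked by ovalbumin, which the labels call food allergy. Peyer's patches, lymphoid organs within the intestinal wall, gave 10 samples of each condition over 5 run dates. Of these, 1 food allergy sample of run 1 was not analysed here. Titles of runs 1 and 2 name a location, with libraries that end in D, I or J. In run 1, control libraries D, I and J therefore stand against food allergy libraries I and J. The lamina propria, the tissue under the gut epithelium, gave 3 libraries of each condition labelled nonTB and 1 of each labelled IgDLow, names that the labels do not define. Whether the libraries within a group represent different animals or cultures is not stated in the labels, and the p-values given here measure the spread between libraries, which may be technical.

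IL-2 and IL-7 belong to the cytokine family that signals through the common gamma chain, which Il2rg encodes. Il7r encodes the alpha chain of the IL-7 receptor, which pairs with the common gamma chain, while the high-affinity IL-2 receptor joins the alpha chain CD25, from Il2ra, to the beta chain CD122, from Il2rb, and the common gamma chain. CD122 with the common gamma chain also carries IL-15 signals, and both receptors act through the kinases JAK1 and JAK3 and the transcription factor STAT5. In the gut, IL-7 is a survival cytokine of innate lymphoid cells (ILCs) and naive T cells, and IL-2 sustains regulatory T cells and expands ILC2s.

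In the mouse assembly GRCm38 (GENCODE vM21 annotation), Il2 spans chr3:37120523-37125959 on the minus strand, Il2ra chr2:11642807-11693193 on the plus strand and Il2rb chr15:78479256-78495271 on the minus strand. Il2rg spans chrX:101264378-101268255 and Il7r chr15:9505788-9530176, both on the minus strand. RefSeq promoter entries (GRCm38.p6) were found for 4 of the 5 members, Il2, Il2ra, Il2rg and Il7r. The 250 bases before the start site were searched on both strands for 4 short motifs, and the same windows of 32851 RefSeq promoters gave the share of all promoters with a match. The core letters of a STAT site, TTCNNNGAA, were held by 7.02% of them. The core letters of an NF-κB site, which are GGG and CC with any 5 bases between them, were held by 45.8%. The letters TGACG, part of a cAMP response element, were held by 17.8%. A site of the GATA factors, AGATAA, was held by 9.99%. The windows of Il2 (chr3:37125955-37126204, minus strand), Il2ra (chr2:11642542-11642791, plus strand) and Il7r (chr15:9529877-9530126, minus strand) are shown because they hold a match, marked in capitals, and because these are the ligand and the 2 alpha chains whose levels the results turn on. The capitals of Il2 are a match to the NF-κB letters, 224 to 215 bases before the start. Those of Il2ra are 2 overlapping matches of these letters, on opposite strands, 201 to 191 bases before the start, and those of Il7r are TTCNNNGAA, 142 to 134 bases before the start. The window of Il2rg held none of the 4 motifs. All start sites here are those of RefSeq. The Il7r window lies inside the GENCODE span of the gene, which begins at 9530176 on the minus strand. Its match is thus before the RefSeq start but not before the GENCODE start. The NF-κB letters are common among promoters, and a match describes the letters and no binding.
Il2: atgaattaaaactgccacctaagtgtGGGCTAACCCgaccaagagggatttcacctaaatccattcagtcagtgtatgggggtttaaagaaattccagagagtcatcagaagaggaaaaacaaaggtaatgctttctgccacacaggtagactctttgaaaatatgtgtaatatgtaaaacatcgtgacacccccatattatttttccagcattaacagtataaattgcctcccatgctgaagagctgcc
Il2ra: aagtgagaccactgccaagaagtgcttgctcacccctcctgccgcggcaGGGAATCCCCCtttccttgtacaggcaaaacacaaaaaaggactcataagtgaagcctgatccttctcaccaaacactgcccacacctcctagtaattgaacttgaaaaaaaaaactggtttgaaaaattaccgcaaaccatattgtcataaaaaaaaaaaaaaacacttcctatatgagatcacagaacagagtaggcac
Il7r: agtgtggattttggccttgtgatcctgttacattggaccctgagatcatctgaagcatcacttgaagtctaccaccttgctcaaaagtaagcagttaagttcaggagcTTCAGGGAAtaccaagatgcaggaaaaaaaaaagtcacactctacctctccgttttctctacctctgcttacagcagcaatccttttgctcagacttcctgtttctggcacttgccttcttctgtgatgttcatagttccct

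The 13 cultures held 6942764 to 21551901 expected counts each, of which the ribosomal RNA precursor Rn45s took 57.5% to 78.7%. Of the markers of the sorted cells, Gata3 stood at 314 to 847 counts per 1e6 counts (CPM), Calca at 505 to 2004 CPM and Klrg1 at 78.0 to 187 CPM. Of other cells' markers, the T cell gene Cd3e reached at most 1.20 CPM, the NK cell gene Eomes 3.79 to 16.6 CPM, and the myeloid gene Lyz2, with a median of 0, had a highest value of 66.6 CPM, and their part in the results was not tested. CGRP replicate 2 stood apart, with rank correlations to the other CGRP cultures of 0.867 to 0.895, against 0.931 to 0.942 among those. The single-cell table held 58067 cells of 27 libraries, 379 to 3891 cells a library, with library medians of 1829 to 3975 transcript molecules (UMIs) a cell. Cells were sorted into types by sets of marker genes without the 5 members, and each type is written as, for example, ILC2-like. Exactly 1 type was given to 41739 cells (71.9%), 12518 cells passed no marker set and 3810 passed more than 1. Of the cell barcodes, 2180 occurred in more than 1 library, and 119 of the 1571 ILC2-like cells carried such a barcode.

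The 3 receptor chains of ILCs were highest in different cells. Il2ra was highest in ILC2-like cells, Il2rb in NK- or ILC1-like cells and Il7r in ILC3-like cells of the lymphoid tissue inducer (LTi) kind, while Il2rg was spread over all ILC types and Il2 itself was low everywhere. These levels are shares of all UMIs in a cell type and library, scaled to CPM, they are compared between cell types and not between genes, and no test was made of them.

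**Figure D1:**
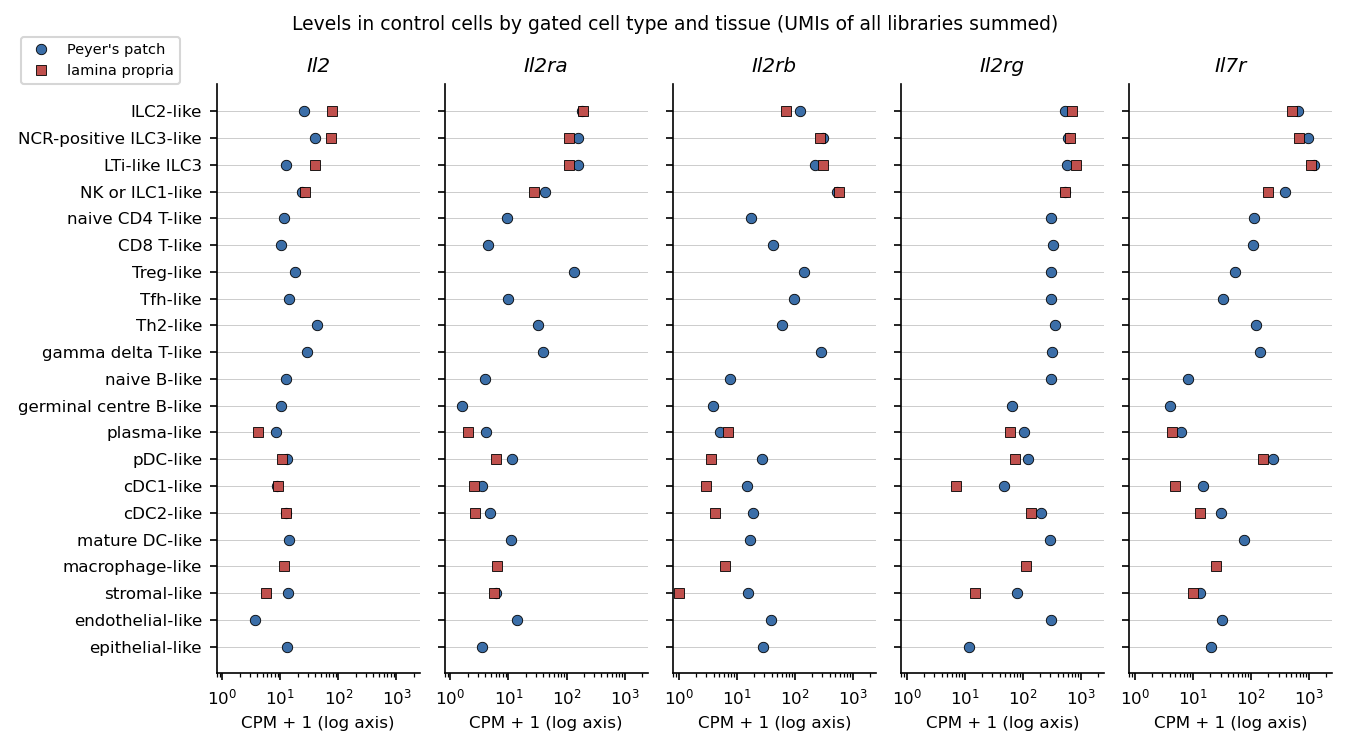
Levels of the 5 genes in control cells by cell type (rows) and tissue (colour), as CPM + 1 on a log axis, with 1 point for the summed UMIs of all libraries of a tissue. Il2ra is highest in ILC2-like cells, Il2rb in NK- or ILC1-like cells and Il7r in LTi-like ILC3s.

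In control lamina propria (nonTB, n = 3 libraries, mean ± SD), Il2 reached 77.0 ± 11.0 CPM in ILC2-like cells. ILC3-like cells are called NCR-positive (natural cytotoxicity receptor) if they held a UMI of Ncr1, Tbx21 or Klrk1 and none of the LTi markers. A cell may thus pass without Ncr1, the gene of that receptor, and 77.7% of these cells were lost with 1 more gate marker. Il2 stood at 72.6 ± 22.1 CPM in NCR-positive ILC3s, at 37.4 ± 4.45 CPM in LTi-like ILC3s and at 32.5 ± 26.5 CPM in NK- or ILC1-like cells. The first pair did not differ beyond its spread, nor did the second. In control Peyer's patch (sums of a run date), Il2 was lower and uneven, with 19.8 ± 4.63 CPM in ILC2-like cells (n = 3), 32.5 ± 13.9 CPM in NCR-positive ILC3s (n = 3) and 6.31 ± 5.84 CPM in LTi-like ILC3s (n = 4). Pooled over all libraries, B lineage cell types, taken as cells that should lack the transcript, held 2.95 to 13.97 CPM. Pooled naive CD4 T-like cells (10.2 CPM) and CD8 T-like cells (9.22 CPM) lay inside that range and are read as background. Single sums of a run date spread wider, up to 33.9 CPM in naive B-like and 27.2 CPM in germinal centre B-like cells of Peyer's patch. The Peyer's patch means of the 3 ILC types given here lie under that highest sum. At least 1 Il2 UMI was found in 6.37% of ILC2-like cells (median 2457 UMIs a cell) and in 10.5% of germinal centre B-like cells (median 6847 UMIs), so that the share of cells with a UMI does not separate the 2 types.

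Il2ra stood at 191 ± 30.7 CPM in control lamina propria ILC2-like cells, above LTi-like ILC3s (117 ± 30.0 CPM) and NCR-positive ILC3s (110.2 ± 14.2 CPM), which did not differ beyond their spread. NK- or ILC1-like cells held 27.0 ± 3.59 CPM and plasmacytoid dendritic cells (pDC-like) 4.98 ± 1.41 CPM. The order in control Peyer's patch was the same at the top, with 167 ± 48.5 CPM in ILC2-like cells (n = 3), 145 ± 29.1 CPM in NCR-positive ILC3s (n = 3), 143 ± 28.4 CPM in LTi-like ILC3s (n = 4) and 125 ± 38.0 CPM in Foxp3+ regulatory T (Treg-like) cells (n = 3), 4 levels within each other's spread. CD8 T-like cells (10.2 ± 9.50 CPM, n = 5) and naive CD4 T-like cells (9.21 ± 2.85 CPM, n = 3) were far lower. An Il2ra UMI was found in 42.5% of ILC2-like cells and in 0.722% of naive B-like cells, at median depths of 2457 and 2748 UMIs a cell.

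Il2rb ran differently. NK- or ILC1-like cells led in both tissues, at 562 ± 57.3 CPM in lamina propria (n = 3) and 569 ± 118 CPM in Peyer's patch (n = 5). In lamina propria LTi-like ILC3s (325 ± 48.4 CPM) and NCR-positive ILC3s (266 ± 54.6 CPM) followed within each other's spread, and ILC2-like cells, the highest for Il2ra, stood at 68.8 ± 31.9 CPM. In Peyer's patch γδ T-like cells reached 317 ± 82.4 CPM (n = 5), NCR-positive ILC3s 304 ± 18.0 CPM (n = 3) and LTi-like ILC3s 234 ± 21.4 CPM (n = 4). Treg-like cells held 146 ± 24.6 CPM (n = 3) and ILC2-like cells 129.8 ± 68.6 CPM (n = 3). At least 1 UMI of each of Il2ra, Il2rb and Il2rg was seen in 151 of 1571 ILC2-like cells, a count that depth limits.

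Il2rg, the shared chain, was the most even of the 4 receptor genes. In control lamina propria it stood at 873 ± 213 CPM in LTi-like ILC3s, 710.3 ± 191 CPM in ILC2-like cells, 625 ± 125 CPM in NCR-positive ILC3s and 564 ± 120.5 CPM in NK- or ILC1-like cells, each within the spread of its neighbour, against 76.5 ± 12.2 CPM in pDC-like cells and 59.9 ± 2.45 CPM in plasma-like cells. In Peyer's patch, naive B-like cells (347 ± 68.8 CPM) stood with the T cell types, of which naive CD4 T-like cells held 309 ± 30.9 CPM. Il7r was highest in LTi-like ILC3s in both tissues, at 1024 ± 315 CPM in lamina propria (n = 3) and 1114 ± 137 CPM in Peyer's patch (n = 4). NCR-positive ILC3s came next in lamina propria (678 ± 106 CPM), then ILC2-like cells (517 ± 25.6 CPM), NK- or ILC1-like cells (191 ± 28.8 CPM) and pDC-like cells (153 ± 33.9 CPM), the last 2 within each other's spread. In Peyer's patch, naive CD4 T-like cells (109 ± 13.3 CPM) and Treg-like cells (57.2 ± 30.6 CPM) stood under every ILC type, as did T follicular helper (Tfh-like) cells at 23.2 ± 6.95 CPM.

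Over 30 combinations of cell type and tissue in control cells, Il2rg reached 100 CPM in 22, Il7r in 14, Il2rb in 9, Il2ra in 7 and Il2 in none. Across these combinations the rank correlations between members ran from 0.703 (Il2 with Il7r) to 0.884 (Il2ra with Il7r) over combinations that share libraries and depth, given as a description. Of 5424 genes, those most like Il2rb were Cd160 (0.946), a receptor of cytotoxic lymphocytes, and the T and NK cell kinases Txk (0.919) and Zap70 (0.903). Il2ra was followed by Prrc2c (0.905) and Chd2 (0.889), Il2rg by Cd96 (0.908), Il7r by Gm20186 (0.906) and Il2 by Mgat5 (0.815).

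In the cultured ILC2s, Il2ra was the member that moved most. CGRP lowered it, alone and on top of IL-25, and CGRP alone raised Il2rb, while Il7r did not pass the test in any contrast. Levels in culture are CPM after TMM scaling, and a higher level in a culture may come from more cells with the transcript or from more RNA per cell, which cannot be told apart. Changes are log2 ratios from edgeR's quasi-likelihood test on all 13 cultures, with p-values adjusted by Benjamini-Hochberg over the 12355 genes tested, and the contrasts share control cultures. Per kilobase of transcript, base cultures held on average 84.7 CPM of Il2rg, 30.4 CPM of Il2ra, 20.5 CPM of Il2rb and 16.4 CPM of Il7r.

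**Figure D2:**
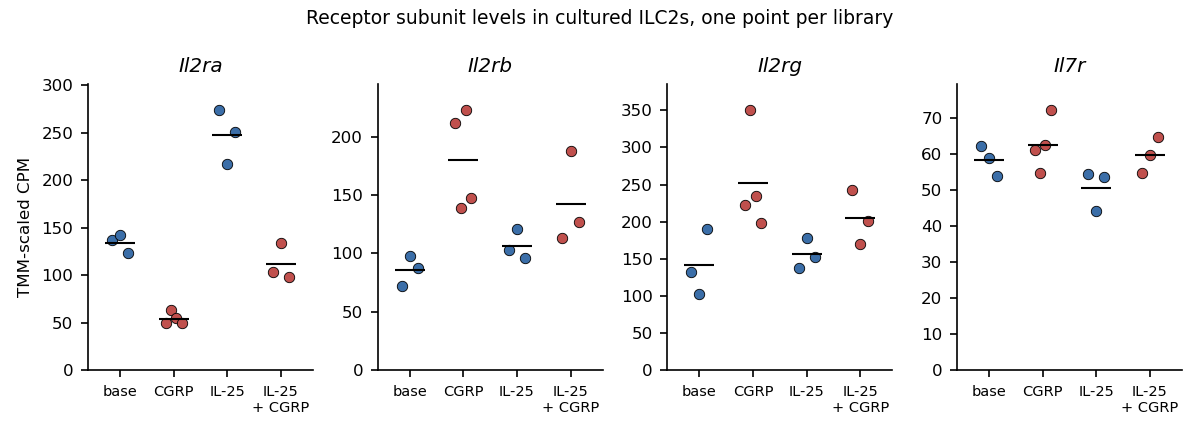
Levels of Il2ra, Il2rb, Il2rg and Il7r in CPM in each of the 13 ILC2 cultures (points), by group, with the group mean as a bar. The 4 CGRP cultures sit at 49.4 to 62.9 CPM of Il2ra, under all 3 base medium cultures (123 to 142 CPM).

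Il2ra stood at 137, 142 and 123 CPM in base medium and at 49.4, 62.9, 54.8 and 49.6 CPM with CGRP. Every CGRP culture lay under every base culture, and the gene fell by 1.31 on the log2 scale (SE 0.22, adjusted p = 0.00188). With IL-25 the levels were 273, 217 and 251 CPM, and with both agents 103, 134 and 97.4 CPM, a fall of CGRP on top of IL-25 that did not overlap either (log2 change -1.15, SE 0.24, adjusted p = 0.0186). The call of that second contrast was lost without IL-25 replicate 1 or 3 or without replicate 1 or 3 of both agents, with an adjusted p of up to 0.154. IL-25 alone did not change Il2ra past the threshold (log2 change 0.88, SE 0.24, unadjusted p = 0.00125, adjusted p = 0.497), although all 3 IL-25 cultures lay above all 3 base cultures. Both agents together against CGRP alone gave 1.04 (SE 0.22, adjusted p = 0.0794), which without CGRP replicate 2 passed (1.11, adjusted p = 0.0417). Without that culture, Il2ra fell by 1.39 between CGRP and base medium (adjusted p = 0.000875).

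Il2rb, the chain shared with the IL-15 receptor, stood at 71.9, 98.2 and 87.6 CPM in base medium and at 212, 139, 223 and 147 CPM with CGRP. No culture of the 2 groups overlapped, and it rose by 1.07 (SE 0.26, adjusted p = 0.0349). That call was lost without any of the 3 base cultures or without CGRP replicate 1 or 3 (adjusted p up to 0.187), and when only the 2 groups were fitted (adjusted p = 0.0545), but not without CGRP replicate 2 (1.17, adjusted p = 0.0121). With IL-25 Il2rb held 103, 121 and 96.3 CPM and with both agents 113, 188 and 127 CPM, an overlap of the groups (log2 change 0.41, adjusted p = 0.626).

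Il2rg read 132, 103 and 189.6 CPM in base medium and 222, 349.8, 235 and 199 CPM with CGRP. The groups did not overlap, yet the change of 0.83 did not pass (SE 0.26, adjusted p = 0.127). Il7r ran from 53.7 to 62.1 CPM in base medium, 44.0 to 54.3 CPM with IL-25, 54.7 to 72.0 CPM with CGRP and 54.6 to 64.6 CPM with both, ranges that overlap between base medium and each of the other groups. Its log2 changes against base medium were -0.20 for IL-25, 0.10 for CGRP and 0.03 for both. Il2 gave 0 to 18 expected counts a culture and was not tested.

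Of the 4 members tested, none passed for IL-25 against base medium, where 0.0728% of all genes tested passed, 2 passed for CGRP against base medium (1.49% of genes), and 1 passed for both agents against IL-25 (0.631%). None passed for both agents against CGRP (0.113%) or against base medium (0.882%), where Il2ra gave -0.27 (adjusted p = 0.737) and Il2rb 0.73 (adjusted p = 0.265). For the interaction, the change of the CGRP effect with IL-25, edgeR called 0% of genes, with 532 genes at an unadjusted p under 0.05 and 0 by DESeq2. Its member values ran from -0.66 for Il2rb (unadjusted p = 0.0899) to 0.16 for Il2ra.

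The pathway around the receptors was followed in 6 lists of 51 genes, chosen with earlier results of these data known. Under CGRP against base medium, 1 of 6 feedback genes rose (list median 0.49), which was Socs2, an inhibitor of STAT5 signals, at 50.4 to 66.6 CPM in base medium and 120 to 141 CPM with CGRP (log2 change 1.18, adjusted p = 0.0102). Of 11 STAT5 target and survival genes 2 rose (median -0.16), the cytokine Osm (2.00, adjusted p = 0.00112) and the cell cycle inhibitor Cdkn1a (1.18, adjusted p = 0.0213). Of 13 regulators, Gata3, which drives ILC2 identity, rose by 1.04 (adjusted p = 0.0282) and the repressor Gfi1 fell by 2.56 (adjusted p = 0.0350), from 6.16 ± 3.19 CPM (n = 3) to 1.03 ± 0.732 CPM (n = 4). None of 9 kinases and STATs (median -0.10), 5 other receptors of the family (0.06) or 3 ligands (-0.10) passed.

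Under IL-25 against base medium, the ligand Il9, a cytokine of ILC2s and a user of the common gamma chain, was the 1 of 3 ligands that rose, from 8.24 to 48.2 CPM in base medium to 264 to 547 CPM (log2 change 3.55, adjusted p = 0.00382). The survival kinase Pim2, a STAT5 target, rose from 30.4 ± 6.54 CPM to 103 ± 10.8 CPM (n = 3 each, 1.76, adjusted p = 0.00382) and was the 1 of 11 STAT5 target and survival genes that rose (median 0.39). Both genes were also higher with both agents than with CGRP, by 3.77 (adjusted p = 0.000941) for Il9 and 1.55 (adjusted p = 0.00514) for Pim2. Against base medium both agents raised Il9 (3.65, adjusted p = 0.000726) and Osm (1.85, adjusted p = 0.00396), and no list gene passed for both agents against IL-25. The median over all genes tested ranged from -0.04 to 0.01 over the 6 contrasts.

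In lamina propria food allergy, Il2 fell and Il2ra and Il2rb rose in ILC2-like cells, and Il2rb rose in NCR-positive ILC3s. In total 5 cell types could be compared, with 20 of 25 member values tested, 3 higher and 1 lower. The tests are edgeR's quasi-likelihood test on UMIs summed per library, with run date as a term and adjustment over all genes tested in that cell type.

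**Figure D3:**
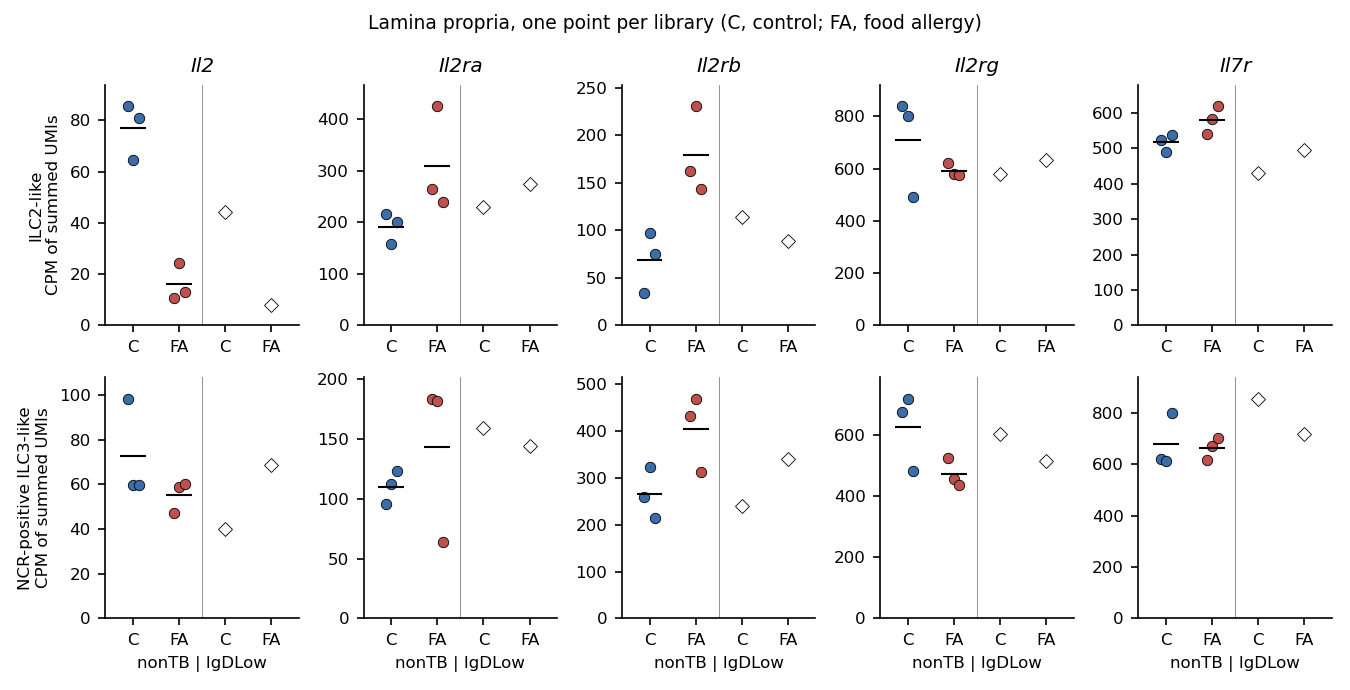
Levels of the 5 genes in CPM in ILC2-like cells (upper row) and NCR-positive ILC3s (lower row) of lamina propria, with 1 point for each control (C) and food allergy (FA) library, bars at the mean of the 3 nonTB libraries and diamonds for the IgDLow libraries. In ILC2-like cells, Il2 sits at 64.6 to 85.5 CPM in control and 10.8 to 24.2 CPM in food allergy libraries.

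Il2 stood at 85.5, 64.6 and 80.8 CPM in the control ILC2-like cells (334 cells, 44 UMIs in all) and at 10.8, 24.2 and 13.1 CPM in food allergy (370 cells, 11 UMIs). The groups did not overlap, and Il2 fell by 2.03 on the log2 scale (SE 0.44, adjusted p = 0.00448). Of the 3 food allergy libraries 2 lay inside the 2.95 to 13.97 CPM of pooled B lineage cell types. All 3 lay under the 33.9 CPM of the highest naive B-like sum, which is from Peyer's patch. With each cell thinned to 1000 UMIs (24 and 26 cells left out), 19 of 310 control cells (6.13%) and 7 of 344 food allergy cells (2.03%) held an Il2 UMI, against 9.88% and 2.97% unthinned. In pDC-like cells the thinned shares were 1.34% and 0.559%, at median depths of 3161 and 2888 UMIs a cell, against 1602 and 1687 UMIs in ILC2-like cells.

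Il2ra stood at 217, 157 and 199 CPM in control and 265, 424 and 239.6 CPM in food allergy ILC2-like cells. The groups did not overlap, and it rose by 0.85 (SE 0.23, adjusted p = 0.0167). That call was lost by DESeq2 (adjusted p = 0.1005), without run date (adjusted p = 0.0625), and without food allergy replicate 2 (0.53, adjusted p = 0.125) or control replicate 2 (0.60, adjusted p = 0.189). Il2rb stood at 34.2, 96.9 and 75.4 CPM in control and at 162, 230.2 and 144 CPM in food allergy, again without overlap (log2 change 1.48, SE 0.30, adjusted p = 0.00233). The 3 calls came among 2998 genes tested, of which 14.8% passed in that cell type. Il2rg (-0.11, adjusted p = 0.702) and Il7r (0.30, unadjusted p = 0.0478, adjusted p = 0.171) did not pass, although Il7r, at 489 to 539 CPM against 541 to 619 CPM, did not overlap.

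Between these groups the marker sums of ILC3s and mast cells did not overlap, while those of T, naive T, B, plasma and NK or ILC1 cells did. In ILC2-like cells, 12 ILC3 markers summed to 913 to 1180 CPM in control and 804 to 884 CPM in food allergy libraries, with Il23r, Il22 and Il17f at 0, and 11 mast cell markers to 70.0 to 157 CPM and 157 to 196 CPM. The 10 T cell markers overlapped (2645 to 3104 and 2579 to 2868 CPM, Cd3d at 0 in both), as did the 8 B cell markers (22.8 to 32.3 and 8.08 to 43.6 CPM). The mast cell ranges barely parted, at 156.85 CPM in control and 156.86 CPM in food allergy. Of the 11 mast cell markers 5 were higher in food allergy, as were 4 of the 12 ILC3 markers. The part of these lists in the member changes was not tested. Under a stricter marker gate, Il2 read 76.1 CPM in 174 control and 13.2 CPM in 160 food allergy cells, a gene not past the filter there.

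NCR-positive ILC3s held 259, 323 and 215 CPM of Il2rb in control and 431, 468 and 312 CPM in food allergy. The lowest food allergy library lay under the highest control library, and Il2rb rose by 0.61 (SE 0.14, adjusted p = 0.0227) among 4500 genes tested, of which 1.84% passed. That call was lost by DESeq2 (adjusted p = 0.267), without run date (adjusted p = 0.265), without food allergy replicate 1 (adjusted p = 0.0971) or 2 (adjusted p = 0.172), without control replicate 1 (adjusted p = 0.271) and with 1 more gate marker (1.07, adjusted p = 0.280). The T cell markers of these cells, at 2100 to 2201 CPM in control and 2221 to 2702 CPM in food allergy, did not overlap. Nor did their 12 ILC3 markers (4767 to 4986 and 4223 to 4710 CPM) or their 16 ILC2 markers (831 to 1092 and 620 to 777 CPM), and the part of these 3 lists was not tested. Il2 (-0.33, adjusted p = 0.776) and Il2ra (0.35, adjusted p = 0.711) did not pass, and Il2rg gave -0.38 (unadjusted p = 0.00559, adjusted p = 0.155), a value that passed when replicate 3 of control or of food allergy was left out (adjusted p = 0.00640 and 0.00635).

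No member passed in LTi-like ILC3s (0.189% of genes passed), NK- or ILC1-like cells (1.75%) or pDC-like cells (1.9%). Il2rg ran below 0 in all 5 lamina propria cell types, from -0.68 in LTi-like ILC3s to -0.11 in ILC2-like cells, and passed in none. These types come from the same libraries, and the share of all genes below 0 in all 5 was not counted. In LTi-like ILC3s Il2ra gave 0.56, Il2rb -0.19 and Il7r -0.20. In NK- or ILC1-like cells, the highest for Il2rb, that gene gave 0.11 and Il2 -0.41. In pDC-like cells Il7r gave 0.32 (unadjusted p = 0.0409, adjusted p = 0.370). The IgDLow libraries, 1 per condition and so without a test, held 7 Il2 UMIs in 69 control ILC2-like cells, 44.4 CPM (exact Poisson 95% interval 17.9 to 91.5, counting error only), and 2 in 90 food allergy cells, 8.07 CPM (0.977 to 29.2). Il2rb read 114 CPM (67.7 to 181) and 88.8 CPM (55.6 to 134) there, and Il2ra 228 CPM (160.0 to 316) and 274 CPM (213 to 348).

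In Peyer's patch, where 11 cell types gave 55 member values and 44 tests, 1 member passed, Il7r in CD8 T-like cells. Units were sums over the libraries of a run date and condition, with run date as a term. Only runs with sums of both conditions inform a change. ILC2-like, NCR-positive ILC3, Th2-like and pDC-like cells had 2 such runs, which left 1 degree of freedom for the spread. Over the cell types tested, the log2 changes ran from -0.16 to 0.64 for Il2ra, from -0.35 to 0.49 for Il2rb, from -0.47 to 0.14 for Il2rg and from -0.34 to 0.60 for Il2, while those of Il7r reached from -0.14 to 2.11.

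**Figure D4:**
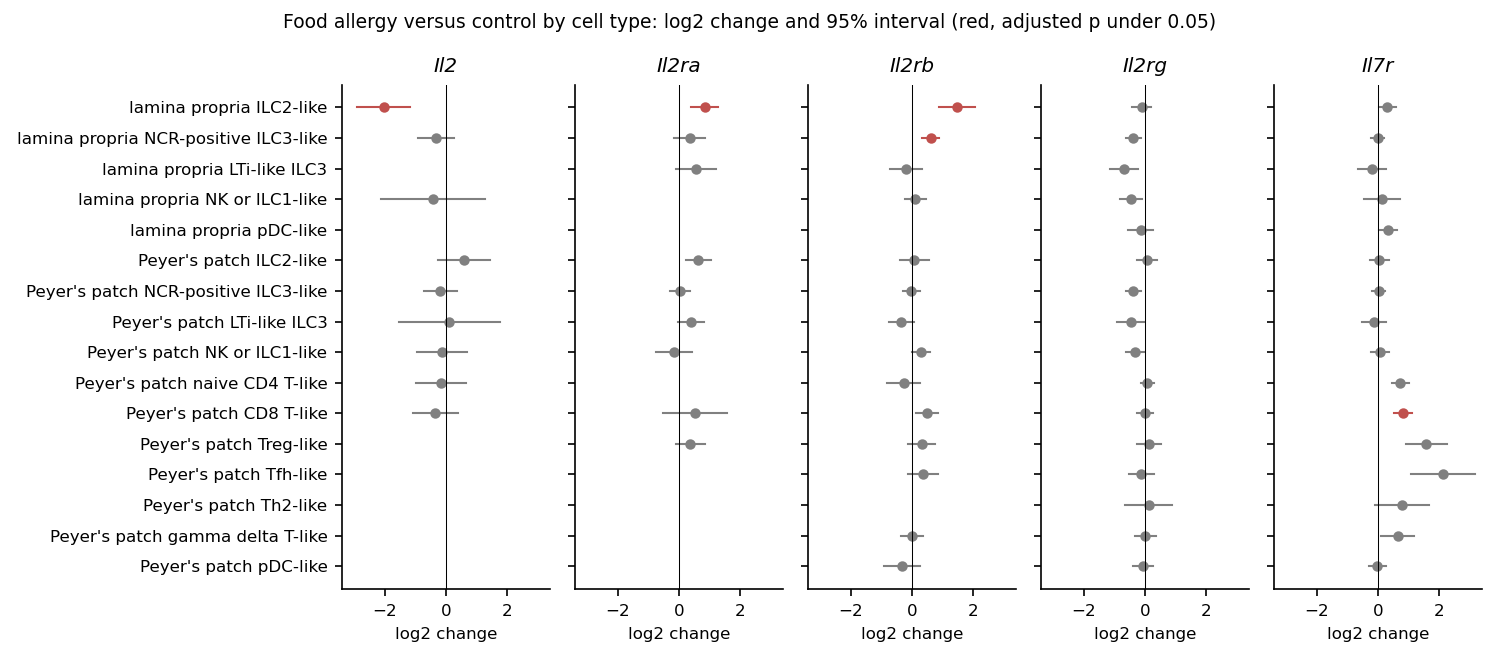
Log2 change of the 5 genes in food allergy against control in each cell type of lamina propria and Peyer's patch. Values past the threshold are in red, and lines are approximate 95% intervals with the SE derived from edgeR's F statistic. Il2 in lamina propria ILC2-like cells is lowest at -2.03, with a Peyer's patch value of 0.60.

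Il7r stood at 115, 101, 85.8, 379 and 166 CPM in control CD8 T-like cells of runs 1 to 5 and at 246, 151, 175, 266 and 189.9 CPM in food allergy. It was higher in food allergy in 4 of 5 runs and rose by 0.82 (SE 0.15, adjusted p = 0.00374), among genes of which 0.162% passed. Run 4 of control, which goes the other way, held 13 cells. Control naive B-like cells of that run also read 113 CPM of Il7r, against 2.33 to 26.8 CPM in the other control runs. The part of this was not tested. Runs 4 and 5 held 13 to 25 CD8 T-like cells a sum, against 192 to 1047 in runs 1 to 3, and run 1 lacked a food allergy library. The call was lost by DESeq2 (adjusted p = 1.000), without run date (adjusted p = 1.000), with 1 more gate marker (adjusted p = 0.0562), and without control run 1 (adjusted p = 0.0751) or food allergy run 1 (adjusted p = 0.0981). Beside it, naive T cell markers summed to 1683 to 4723 CPM in control and 1489 to 4453 CPM in food allergy, and NK markers to 1138 to 29431 and 1014 to 35747 CPM, which overlap, and their part was not tested.

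**Figure D5:**
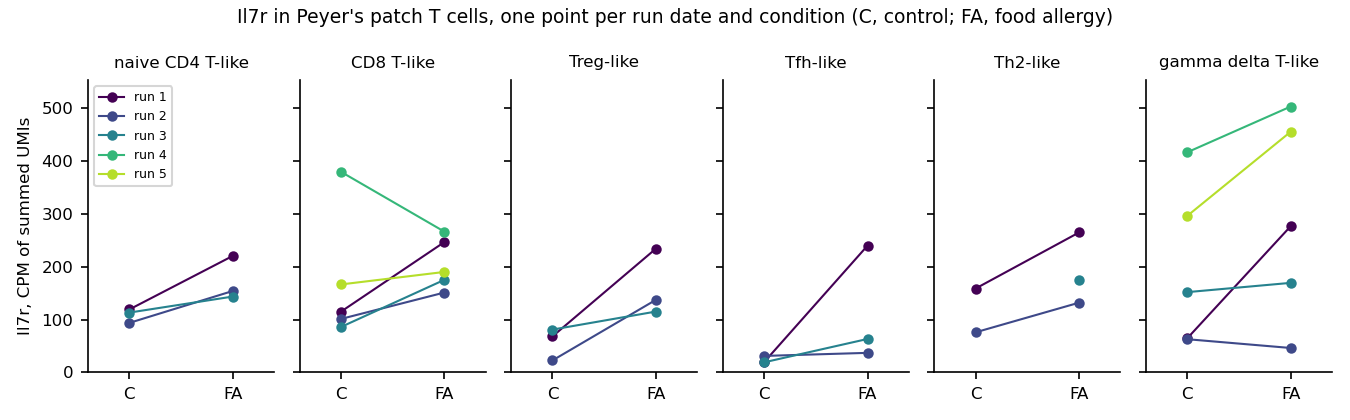
Il7r in CPM in 6 T cell types of Peyer's patch, by run date, with control and food allergy sums of the same run joined. Food allergy is higher in 19 of 21 joined pairs, which come from the same 5 run dates and share libraries. No such count was made for other genes, and only the change in CD8 T-like cells passed its test.

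Il7r lay above 0 in the other T cell types too, except in Tfh-like cells with 1 more gate marker, but passed in none of them. Naive CD4 T-like cells held 119, 93.6 and 113 CPM in control and 220.3, 154 and 143 CPM in food allergy, without overlap (0.73, unadjusted p = 0.000296, adjusted p = 0.328). Treg-like cells held 68.1, 22.7 and 81.0 CPM against 234, 137 and 115 CPM, also without overlap (1.58, adjusted p = 0.450). Tfh-like cells held 19.3, 31.2 and 19.1 CPM against 239.6, 37.0 and 63.2 CPM, with 1 food allergy run far above the rest (2.11, adjusted p = 0.304). γδ T-like cells gave 0.64 (adjusted p = 0.902) and Th2-like cells 0.78 (adjusted p = 0.996). Of the genes tested, 0% passed in naive CD4 T-like cells (317 at an unadjusted p under 0.05, 1 by DESeq2) and 0% in Treg-like cells (168 and 0), 0.0708% in Tfh-like, 0.238% in Th2-like and 0.0404% in γδ T-like cells. The Tfh value turned to -0.14 (adjusted p = 0.995) with 1 more gate marker, and it dropped to 0.85 without control run 1 and to 0.86 without food allergy run 1. With no filter on low counts the naive CD4, Treg and Tfh values passed (adjusted p = 0.00128, 0.00585 and 0.0115), as they did without control run 3 (adjusted p = 5.23e-05, 7.50e-06 and 0.00392), while by DESeq2 each had an adjusted p of 1.000.

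Peyer's patch ILC2-like cells (293 control and 398 food allergy) showed no member past the threshold, beside 1.99% of all genes tested. Il2ra read 137, 139.8 and 223 CPM in control runs 1, 4 and 5. In food allergy runs 2, 3, 4 and 5 it read 493, 362, 253 and 293 CPM (0.64, unadjusted p = 0.0055, adjusted p = 0.156). The 2 groups did not overlap, but they are partly of different run dates, and only runs 4 and 5 inform the change. Il2 read 15.3, 19.6 and 24.5 CPM in control and 0, 121, 12.1 and 50.04 CPM in food allergy (0.60, adjusted p = 0.731), and 20 of the 21 UMIs of food allergy run 3 came from 1 cell, as did 11 of 47 in run 5. Without those 2 cells the value was 0.30 (adjusted p = 0.909). Run 3 gave no control sum here, so its cell bears little on that value. The other 3 log2 changes were 0.08 for Il2rb, 0.05 for Il2rg and 0.04 for Il7r. Naive T cell markers in these cells, 951 to 3818 CPM in control and 137 to 705 CPM in food allergy, did not overlap, and their part was not tested. No member passed in NCR-positive ILC3s (1.77% of genes), NK- or ILC1-like cells (1.33%), pDC-like cells (1.44%) or LTi-like ILC3s (0%, with 249 genes at an unadjusted p under 0.05 and 0 by DESeq2).

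The changes of the 2 tissues and of the cell types were compared by a test of the difference itself, chosen after the values were seen. In ILC2-like cells the Il2 change was lower in lamina propria than in Peyer's patch by 2.60 on the log2 scale (log2 difference -2.60, SE 0.63, adjusted p = 0.0470), with 0.786% of genes passing. The difference was lost under 10 of 14 alternatives, among them leaving out any lamina propria library, the 2 cells with most Il2 UMIs (-2.29, adjusted p = 0.128) or run 5 of either condition in Peyer's patch (-1.32, adjusted p = 0.721 and 0.717). Tissue, run and sort cannot be told apart. The Il2rb difference was 1.47 (adjusted p = 0.0910) and did not pass. No member passed in this test for NCR-positive ILC3s (0.187% of genes), NK- or ILC1-like cells (0.0514%), pDC-like cells (0.394%) or LTi-like ILC3s, where edgeR called 0% of genes, with 144 at an unadjusted p under 0.05 and 0 by DESeq2.

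Within lamina propria, the Il2rb change of ILC2-like cells exceeded that of LTi-like ILC3s by 1.58 (adjusted p = 0.0361, with 1.15% of genes passing) and that of NK- or ILC1-like cells by 1.37 (adjusted p = 0.0109, 3.72%). These were lost under 5 and 4 of 7 alternatives, among them DESeq2 (adjusted p = 0.407 and 0.0840) and leaving out control replicate 1 (adjusted p = 0.294 and 0.0873), control replicate 3 (0.0690 and 0.0698) or food allergy replicate 2 (0.152 and 0.0610), and, for LTi-like ILC3s, food allergy replicate 3 (0.0929). Against NCR-positive ILC3s (5% of genes passing), the differences of Il2rb (0.95, adjusted p = 0.0623) and Il2 (-1.64, adjusted p = 0.0609) did not pass.

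In ILC2-like cells some genes of the pathway lists passed the test in food allergy and most did not. In lamina propria, where 14.8% of all genes tested passed, 2 of 9 STAT5 target and survival genes rose and 1 fell (list median 0.02), with the cytokine Lif, listed as a STAT5 target, up from 16.2 to 39.9 CPM to 244 to 404 CPM (log2 change 3.65, adjusted p = 8.34e-08), the kinase Pim1 up by 0.54 (adjusted p = 0.0139) and the survival gene Bcl2l1 down by 2.26 (7 against 34 UMIs, adjusted p = 0.0308). Of 8 regulators 3 rose (median 0.31), the NF-κB subunits Nfkb1 (1.02, adjusted p = 3.65e-06) and Rel (1.41, adjusted p = 0.00135) and the calcium-signalled factor Nfatc1 (1.44, adjusted p = 0.00713), and Klf2 (-0.55, adjusted p = 0.0161) and Runx3 (-0.80, adjusted p = 0.0374) fell. The single ligand tested, Il4, rose by 1.63 (adjusted p = 0.00678), with control libraries at 245 to 291 CPM and food allergy libraries at 144 to 1385 CPM, which overlap. None of 5 kinases and STATs, 4 feedback genes or 3 other receptors passed, beside a median of -0.004 over all genes.

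In Peyer's patch ILC2-like cells, Il4 rose by 2.42 (adjusted p = 2.24e-07), Lif by 2.07 (adjusted p = 0.00012) and Rel by 1.79 (adjusted p = 7.31e-06), and Klf2 fell by 1.32 (adjusted p = 1.09e-05). The survival gene Bcl2 rose by 0.64 (adjusted p = 0.0322). Beside 1.99% of all genes tested, these were 1 of 1 ligand, 2 of 11 STAT5 target and survival genes (median 0.11) and 2 of 10 regulators (median 0.20), while none of 6 feedback genes (median 0.56), 7 kinases and STATs (0.31) or 3 other receptors (0.05) passed. Rel was listed at 0 in 1 food allergy run and reached 420 CPM in another, and the 2 groups overlapped.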

How the data were processed

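The cultures were measured by Smart-seq2 and the single cells by droplet sequencing. Per the submitters' processing notes, bcl2fastq, Bowtie2, RSEM and Cell Ranger were used with build mm10, with versions, annotation and tool roles not given in the sources used here. As deposited by the authors, the cultures are RSEM expected counts (estimated counts that need not be whole), which were rounded here, and the single cells are 1 matrix of UMI counts. The number of columns of per-sample values not used was 0. The members and all lists were chosen with earlier results of these data known.

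In R 4.3.3, edgeR 4.0.16 fitted the quasi-likelihood test after filterByExpr and TMM scaling, with Benjamini-Hochberg adjustment over all genes tested and a threshold of 0.05, and DESeq2 1.42.0 was an alternative. Cell types were set in Python 3.11.15 by marker gates, hence the ending -like, and only cells passing exactly 1 gate were used. UMI counts were summed per cell type and library (lamina propria) or per run date and condition (Peyer's patch), with at least 10 cells a sum and at least 2 sums a condition. No doublet caller was run, and an alternative left out cells with over 3 times the median UMIs. All 5 members are named in every comparison, and a list gene where its adjusted p is under 0.05, at most 12 a comparison. Genes like a member were the 3 with the highest rank correlation among genes with a mean of at least 20 CPM over control combinations of at least 50 cells. The fits were tested on simulated counts with planted log2 changes of 2 up or down, in genes above a count floor. Most called member changes were smaller, so these simulations do not settle the reliability of those calls. Alternatives covered the tool, the count filter, the gates, depth, run date, the replicate block and leaving out each library or sum, and the tests of differences and leaving out the 2 cells with most Il2 UMIs were chosen after seeing the data. The Poisson intervals of the IgDLow libraries and the shares of cells cover counting error only. Intervals of log2 changes rest on the spread between libraries or sums.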

Additional observations from a re-analysis of the deposited data

Results flagged for a closer look

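In 55 groups of 4 or 5 sums or cultures, 4 had a value far from the rest of its group, where chance gives about 1 in 20 groups. Each was the highest of its group. Il2 reached 80.5 CPM in food allergy NK- or ILC1-like cells of Peyer's patch run 2, a sum of 15 cells. Il7r reached 379 CPM in control CD8 T-like cells of run 4, a sum of 13 cells. Il2 reached 135 CPM in control γδ T-like cells of run 3, a sum of 15 cells. Il2rb reached 142 CPM in control pDC-like cells of run 4, a sum of 99 cells. The 2 values of run 4 do not stand alone. In that run control naive B-like cells read 126 CPM of Il2rb, against 2.08 to 11.3 CPM in the other control runs. Control germinal centre B-like cells read 124 CPM there, against 1.94 to 11.2 CPM. Il7r read 113 CPM in those naive B-like cells, against 2.33 to 26.8 CPM. Food allergy was not spared, with 107 CPM of Il2rb in pDC-like cells of run 4 against 13.4 CPM in run 3 and 5.46 CPM in run 5. Control endothelial-like cells read 186 CPM of Il2rb in run 4, against 0 in run 1 and 8.03 CPM in run 5. Control ILC2-like cells read 207 CPM, against 107 and 75.5 CPM in runs 1 and 5. Control NK- or ILC1-like cells went the other way, with their lowest Il2rb in run 4 (421 CPM). What raised these values in run 4 was not tested.

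In 3 cases a change in food allergy differed between tissues or cell types by a test of the difference itself (edgeR, chosen after seeing the data). The Il2 change of ILC2-like cells differed between lamina propria and Peyer's patch by -2.60 on the log2 scale. The Il2rb change of lamina propria ILC2-like cells exceeded that of LTi-like ILC3s by 1.58 and that of NK- or ILC1-like cells by 1.37. Each was lost under some of its alternatives.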

How the results depend on the processing

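Of 1273 recomputed values of single members, 1212 kept their side of the threshold, 44 lost a call, 17 gained one and 0 reversed. The 11 called values kept their sign in all 127 recomputations and their call in 83. In 73 recomputations a value without a call changed sign. Il2ra under CGRP kept its call in 11 of 11 alternatives (log2 change -1.39 to -1.26). In lamina propria ILC2-like cells, Il2 kept it in 11 of 11 (-2.51 to -1.82) and Il2rb in 13 of 13 (1.11 to 1.80). The Il2 alternatives lack DESeq2, which gave no adjusted p, and 1 more gate marker, where Il2 was not past the count filter.

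The number of members called moved as follows. With DESeq2 it was 1 in place of 0 for IL-25 against base medium (Il2ra, 0.85) and for both agents against CGRP (Il2ra, 1.05), 1 in place of 4 in lamina propria and 0 in place of 1 in Peyer's patch, and it also called Il2rg under CGRP (adjusted p = 0.0378). Fitting only the groups compared gave 1 in place of 2 for CGRP. Without run date, lamina propria gave 2 and Peyer's patch 0, and with 1 more gate marker 2 and 0. Calls over all genes moved too. Lamina propria ILC2-like cells gave 445 of 2998 genes tested in the main fit, 199 of 2591 without run date and 247 of 1869 with 1 more gate marker. NCR-positive ILC3s gave 83 of 4500, 35 of 4047 and 10 of 1488. By DESeq2 these 2 types gave 143 of 1894 and 43 of 2319. Peyer's patch gave 4 with no count filter and 2 with single libraries as the unit. Leaving out a library or sum gave 1 to 2 for CGRP, 0 to 1 for both agents against IL-25, 0 to 1 for both against CGRP, 2 to 5 in lamina propria and 0 to 4 in Peyer's patch. Over all genes, DESeq2 called 501 against 184 for CGRP, 296 against 78 for both agents against IL-25, 282 against 109 for both against base medium and 24 against 9 for IL-25.

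Same-numbered cultures deviated together in 3 of 18 pairs (r over 0.1, range -0.188 to 0.197). Same-numbered lamina propria pairs correlated at 0.110, 0.0572 and 0.204, against -0.150 to 0.0674 for the other pairs. Deviations from the mean of so few libraries depend on each other, so these values do not settle whether the numbers pair the samples. With the replicate block, Il2 in lamina propria ILC2-like cells gave -2.03 (adjusted p = 0.00867) and no count of called members changed. Few UMIs limit the precision in lamina propria ILC2-like cells, with 44 in control and 11 in food allergy behind Il2, and 41 and 120 behind Il2rb.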
